A study of Mus musculus with 4 samples.

Results

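The genes described here belong to the Wnt, Notch and Hedgehog signalling pathways, and were followed in mouse neocortex on embryonic day 16. They were chosen by gene name. Probes with a single gene symbol were taken where the symbol named a Wnt ligand, a frizzled receptor, a Wnt co-receptor, a secreted Wnt modulator, a dishevelled, a component of the β-catenin destruction complex, a β-catenin or TCF/LEF effector, a Notch receptor or ligand, a fringe, a Numb protein, a Hedgehog ligand, a patched, smoothened or a Gli factor. The names matched 64 probes of 63 genes. A value on at least 3 of the 4 arrays was required, which left 47 probes of 46 genes, out of 5337 probes of 5140 named genes that met the same requirement in the whole series. Of these, 29 genes belonged to the Wnt pathway, 12 to the Notch pathway and 5 to the Hedgehog pathway.

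All 3 pathways pattern the developing forebrain. Wnt ligands bind a frizzled receptor with the co-receptor Lrp5 or Lrp6, which through dishevelled stops the destruction complex of Apc, Axin and Gsk3 from removing β-catenin, so that β-catenin can act with TCF/LEF factors on transcription. Delta-like and Jagged ligands on a neighbouring cell open Notch receptors to cleavage, and the released part of Notch joins Rbpj to switch on Hes and Hey genes, which keep cortical progenitors from differentiating. Hedgehog ligands bind patched, which frees smoothened to act on Gli factors, and this route is best known for patterning the ventral forebrain.

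Null mutant embryos, whose brains are synaptically silent per the labels, were compared with control embryos. Both were on a C57BL/6 background. Each of the 4 arrays carried total RNA of a separate null sample in one channel, and the same pool of RNA from 4 control replicates in the other. Null RNA was labelled with Cy5 on replicates 2, 3 and 4, and with Cy3 on replicate 1, whose source name gives day 14 although its title gives day 16. The labels call the null samples biological replicates, without stating whether each came from a single embryo. The mutation was not limited to any cell type by the labels, so that effects on neurons, progenitors and vessels cannot be told apart in whole neocortex RNA. In such bulk RNA, fewer cells of a type and less RNA per cell cannot be told apart either.

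Each value was a log ratio of both channels, taken as log2. The sources used here do not say which channel was the numerator, so the sign of a value gives no direction of change in null neocortex, and signs are printed unaltered. The comparison rests on replicates 2 to 4, whose dyes had the same orientation. Log ratios hold no expression level, so the dissected region could not be checked against its defining markers. The 4 arrays had 5777 to 5873 values each, with medians between -0.03 and 0.00 and SDs over probes of 0.40 to 0.63, the widest on replicate 3. The arrays agreed only weakly. Pearson's r across 5687 probes, which are not independent, was 0.24 for replicates 2 and 3, 0.23 for 2 and 4, and -0.0022 for 3 and 4. Replicate 1, as deposited, had r of -0.02, 0.08 and -0.12 with replicates 2, 3 and 4, so it matched them poorly with either sign. Among the 44 members measured on all arrays, replicates 2 and 3 had r = 0.52 and the other pairs -0.07 to 0.20. Within replicates 2 to 4, an effect of the dye and one of the genotype cannot be told apart.

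Probes without a value fell unevenly over the roles. Of the 64 matching probes, 16 (25%) had no value on any array, against 14.3% of all 6856 probes. All 3 Hedgehog ligands, Shh, Ihh and Dhh, were among them. So were 6 of the 12 Wnt ligands, namely Wnt1, Wnt3, Wnt4, Wnt5a, Wnt5b and Wnt10b. The others were the frizzled receptors Fzd4 and Fzd5, the modulators Sfrp4, Sfrp5 and Dkkl1, the receptor Notch2 and the ligand Dll3. Wnt3a, a ligand of the cortical hem, had values on 2 arrays only, 0.84 on replicate 3 and 0.79 on replicate 4, and was not counted. All probes of the destruction complex, the dishevelled proteins, the nuclear effectors, the fringes, the Numb proteins and the Gli factors had values.

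On replicates 2 to 4, 45 probes of 44 members could be tested, and none passed an adjusted p of 0.05 in limma. Neither did any other of the 5720 probes. At an unadjusted p under 0.05, limma listed 7 members, 5 negative and 2 positive, which is 15.6% of the member probes against 9.67% of all probes. The negative ones were the Wnt co-receptors Lrp6 and Lrp5, the receptor Fzd2, the Wnt effector Tcf7l2 and the Notch-modifying fringe Lfng. The positive ones were the secreted protein Dkk3 and the Notch ligand Dll4. Among all probes the balance ran the other way, with 4.06% negative and 5.61% positive at that p. Counting all 45 member probes at any p, 20 had a negative mean (44.4%, background 52.6%) and 25 a positive one. Of the 45 member probes, 17 kept the same sign on the 3 arrays, against 33.5% of all probes. They comprised 11 negative (background 17.3%) and 6 positive (background 16.3%).

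Wnt signalling supplied 5 of the 7, among 28 tested probes (17.9%, against the same 9.67%). The median log ratio of the Wnt members was 0.04, beside -0.02 over all probes tested, and it was -0.09 without replicate 4. This count fell to 2 without replicate 2, where 4.09% of all probes had such a p, and to 3 without replicate 3, where 9.5% did. It was 3 without a variance prior (7.15% of all probes), 5 with a robust prior (9.69%) and 10 with array weights (18.7%).

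**Figure D1:**
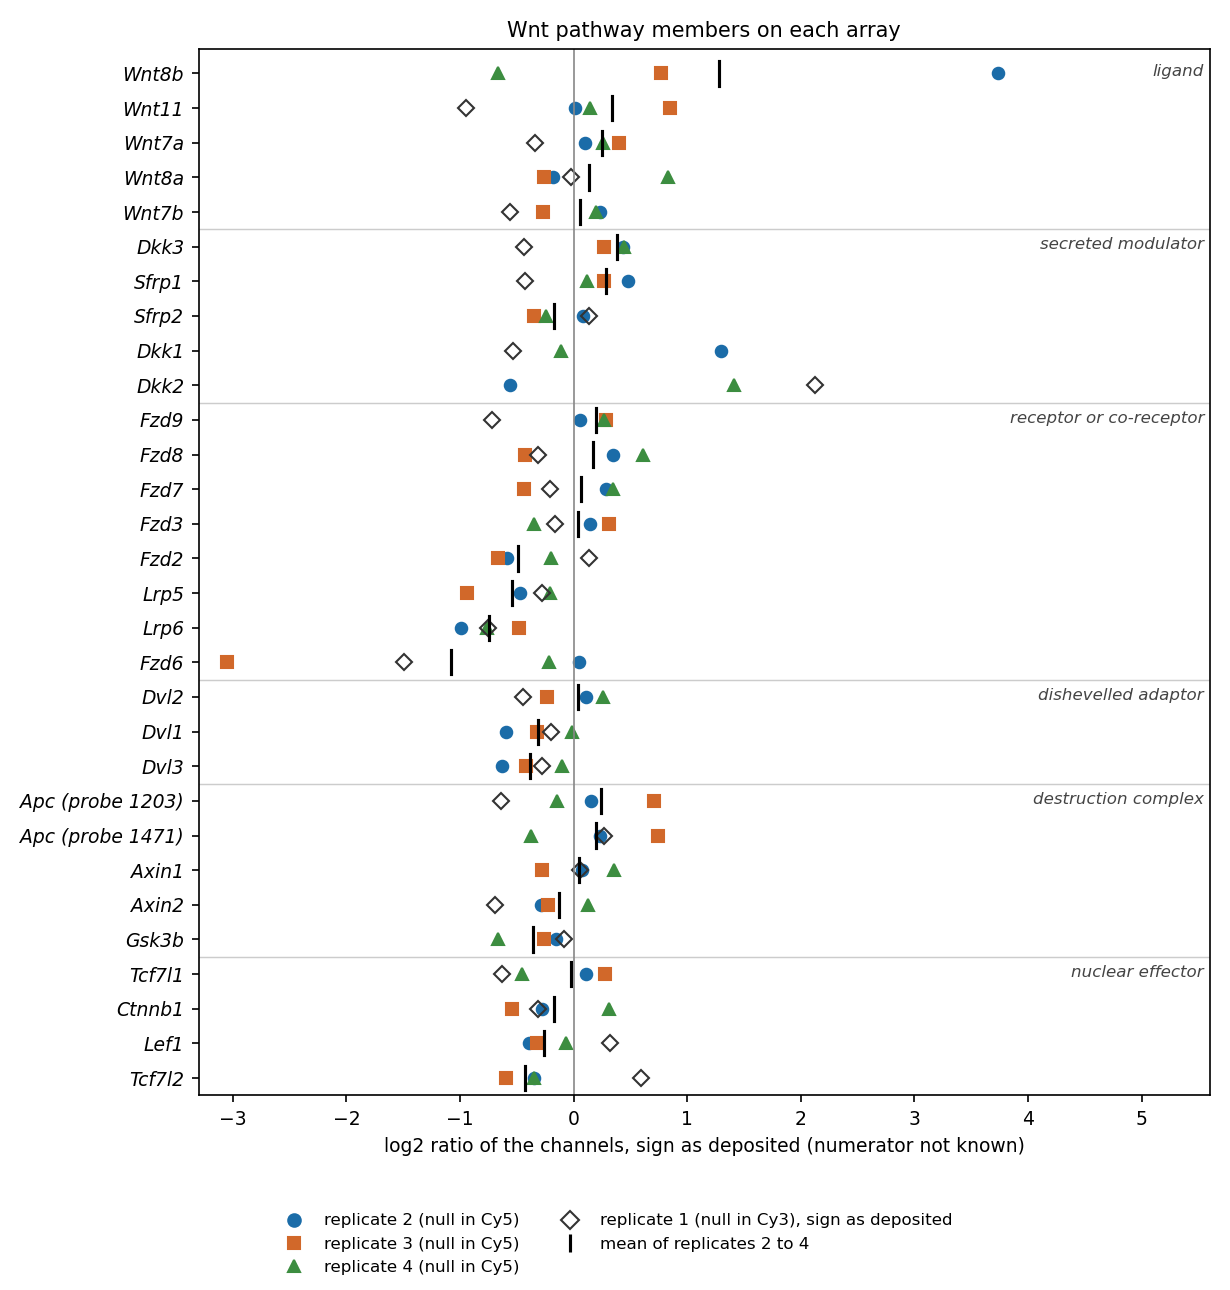
Log2 ratio of each Wnt pathway member (rows, grouped by role) on replicates 2 to 4 (filled symbols), with their mean (black bar), and on replicate 1 as deposited (open diamonds). Lrp6 and Lrp5 lie left of 0 on all 4 arrays, Dkk3 lies right of 0 on replicates 2 to 4 and left of it on replicate 1, and Wnt8b and Fzd6 have the widest spread of the probes with a mean.

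The strongest of the 7 by p was Lrp6, a single-pass co-receptor that is phosphorylated when a Wnt binds and then recruits Axin. Its log ratio was -0.99, -0.48 and -0.76 on replicates 2, 3 and 4. All 3 arrays lay well below 0, and the mean was -0.74 ± 0.25 (SD, n = 3), a size of 1.68-fold. The 95% interval in limma was -1.15 to -0.34, the unadjusted p was 0.00411 and the adjusted p was 0.450. Replicate 1, as deposited, had -0.76, close to the mean of the other arrays, but whether its sign has to be turned is not known. With it turned, the mean over 4 arrays was -0.37 ± 0.78 (SD, n = 4), with an unadjusted p of 0.239 in limma. Lrp6 kept an unadjusted p under 0.05 without each of replicates 2, 3 and 4 in turn, the only 1 of the 7 to do so.

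Its paralogue Lrp5 serves the same step. It had -0.47, -0.94 and -0.21 on replicates 2, 3 and 4, and again no array crossed 0. The mean was -0.54 ± 0.37 (SD, n = 3), or 1.45-fold in size, and limma gave an unadjusted p of 0.0285 and an adjusted p of 0.473. Replicate 1 had -0.28. Without replicate 2 the mean was -0.57, with an unadjusted p of 0.0898 in limma. Without replicate 3 the mean was smaller, at -0.34, with an unadjusted p of 0.0952.

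The frizzled receptors, which hold the ligand in their cysteine-rich outer domain, showed no common sign. Fzd2 had -0.59, -0.66 and -0.20 on replicates 2, 3 and 4, with a mean of -0.49 ± 0.25 (SD, n = 3). It was 1.40-fold in size, and limma gave an unadjusted p of 0.0250 and an adjusted p of 0.473, but the unadjusted p was 0.141 without replicate 2 and 0.0772 without replicate 3. Replicate 1 lay on the other side of 0, at 0.13. Fzd9 was positive on all 3 arrays, at 0.05, 0.28 and 0.27 on replicates 2, 3 and 4. Fzd3 (mean 0.04), Fzd7 (mean 0.06) and Fzd8 (mean 0.17) crossed 0 between arrays. Fzd6, a receptor of planar cell polarity, had 0.05, -3.05 and -0.22 on replicates 2, 3 and 4, so that its mean of -1.08 rested on a single array. Its SD of 1.72 was larger than or equal to that of 99.4% of all probes tested.

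Among secreted modulators, Dkk3 was the most even. This dickkopf relative is the family member least tied to Wnt inhibition. It had 0.43, 0.27 and 0.45 on replicates 2, 3 and 4, with a mean of 0.38 ± 0.10 (SD, n = 3), or 1.30-fold in size. The unadjusted p in limma was 0.0365 and the adjusted p was 0.488, while leaving out replicate 2 gave an unadjusted p of 0.183 and leaving out replicate 4 gave 0.135. Replicate 1 had -0.44, of nearly the same size and the opposite sign. Sfrp1, a decoy receptor that binds Wnts and is made by cortical progenitors, had the same sign as Dkk3 on each array. It had 0.48, 0.27 and 0.11 on replicates 2, 3 and 4 and -0.43 on replicate 1. Its mean of 0.29 ± 0.18 (SD, n = 3) had an unadjusted p of 0.107 in limma and was not called. Sfrp2, a related decoy, had a mean of -0.17 ± 0.22 and crossed 0. The Wnt inhibitors Dkk1 and Dkk2 had no value on replicate 3 and could not enter the fit. Dkk1 had 1.29 on replicate 2, -0.11 on replicate 4 and -0.53 on replicate 1, and Dkk2 had -0.56, 1.41 and 2.12 on these arrays, so that neither held a sign.

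All 5 Wnt ligands that were tested had a positive mean (background 47.4%), and none reached an unadjusted p under 0.05. The shared sign depended on the arrays used, since Wnt7b had -0.04 without replicate 2 and -0.02 without replicate 4, and Wnt8a had -0.22 without replicate 4. With all 4 arrays and replicate 1 as deposited, Wnt7b had -0.10. Wnt7a, which progenitors and neurons of the cortex secrete, had 0.10, 0.40 and 0.26 on replicates 2, 3 and 4. Its mean was 0.25 ± 0.15 (SD, n = 3), while replicate 1 was at -0.34. Wnt11, a ligand of routes that do not use β-catenin, had 0.01, 0.85 and 0.15 on replicates 2, 3 and 4, with -0.95 on replicate 1. Both kept a positive sign on replicates 2 to 4 and had the opposite sign on replicate 1. Wnt7b (mean 0.05) and Wnt8a (mean 0.13) crossed 0. Wnt8b, a ligand of the cortical hem and medial wall, had 3.73, 0.77 and -0.66 on replicates 2, 3 and 4 and no value on replicate 1. Its SD of 2.24 equalled or exceeded that of 99.8% of all probes tested, and its mean of 1.28 had an unadjusted p of 0.153 in limma. That mean rested on replicate 2, without which it was 0.05. Of the 12 measured probes in a list of cortical hem and Cajal-Retzius markers, 9 were negative (background 52.6%). The median was -0.20, -0.02 and -0.10 on replicates 2, 3 and 4. Only Ebf3 had an unadjusted p under 0.05 in limma, and it was positive, at 0.53, 1.17 and 0.39 on these arrays. The part of the listed markers in the Wnt8b values was not tested.

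Ligands and modulators as 1 class had 7 of 8 probes with a positive mean (background 47.4%) and a median of 0.27. The receptors and the members inside the cell had 12 of 20 probes with a negative mean and a median of -0.15. That share of 60% was near the background of 52.6%. The split by cell compartment was made after the values were seen and is given without a test. On replicate 1 both sides were mostly negative as deposited (background 49.8%), with 6 of 7 secreted members and 15 of 20 of the others below 0.

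The dishevelled adaptors relay the signal from frizzled receptors. Dvl3 had -0.63, -0.42 and -0.10 on replicates 2, 3 and 4, and Dvl1 had -0.60, -0.32 and -0.01. Both fell short of the unadjusted threshold in limma, with a p of 0.0593 for Dvl3 (mean -0.38 ± 0.26, SD, n = 3) and 0.118 for Dvl1 (mean -0.31 ± 0.29). Dvl2 crossed 0, with a mean of 0.04 ± 0.26. The arrays kept the same order for Dvl1 and Dvl3, with replicate 2 lowest and replicate 4 nearest 0. Replicate 1 was negative for all 3, at -0.20 for Dvl1, -0.44 for Dvl2 and -0.28 for Dvl3.

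In the destruction complex, the kinase Gsk3b, which marks β-catenin for breakdown, was negative on all 3 arrays, at -0.15, -0.26 and -0.66 on replicates 2, 3 and 4. Its mean was -0.36 ± 0.27 (SD, n = 3), with an unadjusted p of 0.0750 in limma. The scaffold Apc was measured by 2 probes. The probe with ID 1203 had 0.15, 0.71 and -0.15 on replicates 2, 3 and 4, and the probe with ID 1471 had 0.23, 0.74 and -0.37. The probes followed each other over these arrays, and neither mean was distinguishable from 0, with an unadjusted p of 0.287 and 0.427 in limma. On replicate 1 they parted, with -0.64 for probe 1203 and 0.27 for probe 1471. Axin1 averaged 0.05 ± 0.32 (SD, n = 3). Axin2, both a scaffold and a widely used target of β-catenin signalling, averaged -0.13 ± 0.22 and crossed 0.

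All 4 nuclear effectors had a negative mean on replicates 2 to 4 (background 52.6%), but Ctnnb1 had 0.02 without replicate 3 and Tcf7l1 had 0.20 without replicate 4 and 0.14 on 4 arrays with replicate 1 turned. Tcf7l2, a TCF factor abundant in the thalamus, had -0.35, -0.60 and -0.35 on replicates 2, 3 and 4. The mean was -0.43 ± 0.14 (SD, n = 3), or 1.35-fold in size, with an unadjusted p of 0.0265 and an adjusted p of 0.473 in limma. Replicate 1 had 0.59, about as far from 0 on the other side. With only 2 arrays the unadjusted p in limma was 0.0649 or more, whichever array was left out. Lef1, a Wnt-dependent factor of the medial cortex, had the same sign as Tcf7l2 on each array. Its values were -0.40, -0.32 and -0.07 on replicates 2, 3 and 4 and 0.32 on replicate 1. Ctnnb1, which encodes β-catenin, had a mean of -0.17 ± 0.44, and Tcf7l1, a repressor of the same family, had -0.02 ± 0.38. In a list of other diencephalic markers, 6 of 7 measured genes were negative (background 52.6%), and none had an unadjusted p under 0.05 in limma. These markers had a median of -0.28, -0.28 and -0.16 on replicates 2, 3 and 4 and -0.22 on replicate 1. Their part in the Tcf7l2 values was not tested.

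Of 73 further Wnt pathway genes listed for comparison, 35 were measured. Of these, 17 were negative (background 52.6%) and 18 positive, with a median of 0.03. An unadjusted p under 0.05 in limma was found for 3 (8.57%, against 9.67% of all probes). Map3k7, the kinase TAK1, had 0.47, 0.79 and 0.31 on replicates 2, 3 and 4. Sp5, a zinc finger factor and direct Wnt target, had -0.43, -0.29 and -1.03, and Tle3, a Groucho co-repressor of TCF factors, had -1.30, -0.98 and 0.08. The target Ccnd1, cyclin D1, averaged -0.33 ± 0.25 (SD, n = 3) and was not called, like Axin2. The share of these genes with a small p was thus no higher than in the whole array.

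Notch pathway members gave 2 of 12 tested probes at an unadjusted p under 0.05 in limma (16.7%, against 9.67% of all probes), a ligand on the positive side and a fringe on the negative side. The median log ratio was 0.06, and 8 of 12 means were positive (background 47.4%). The count was 1 without replicate 2 (4.09% of all probes), 0 without replicate 3 (9.5%) and 3 without replicate 4 (10.9%). It was 1 where probes with 2 values were admitted (9.39%).

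**Figure D2:**
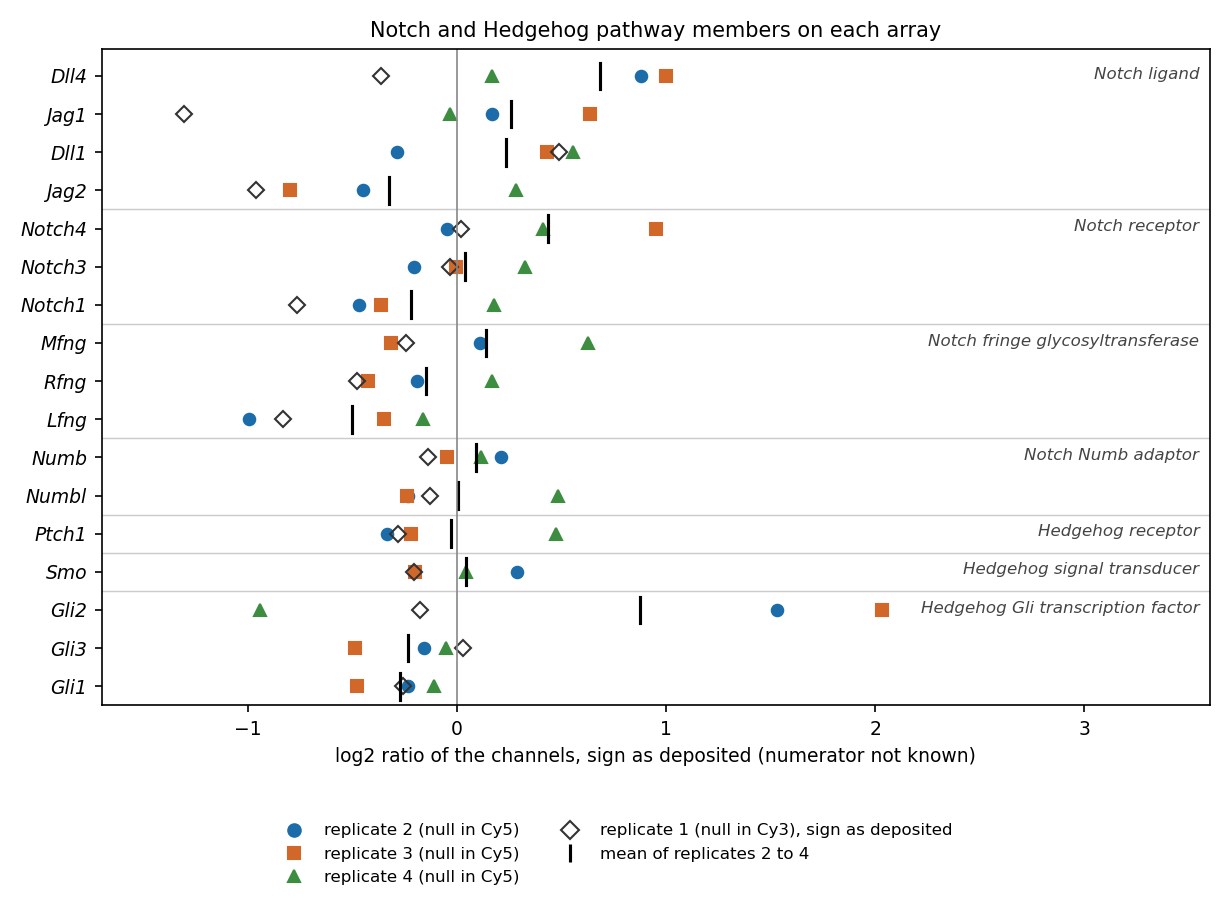
Log2 ratio of each Notch and Hedgehog pathway member (rows, grouped by role) on replicates 2 to 4 (filled symbols), with their mean (black bar), and on replicate 1 as deposited (open diamonds). Dll4 lies right of 0 on replicates 2 to 4, Lfng lies left of 0 on all 4 arrays, and Gli2 reaches 2.03 on replicate 3 and -0.94 on replicate 4.

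Dll4 is the Delta-like ligand that endothelial tip cells use to restrain sprouting. It had 0.88, 1.00 and 0.17 on replicates 2, 3 and 4. Replicates 2 and 3 stood well apart from 0, whereas replicate 4 lay near it. The mean was 0.68 ± 0.45 (SD, n = 3), or 1.6-fold in size, and limma gave a 95% interval of 0.17 to 1.19, an unadjusted p of 0.0171 and an adjusted p of 0.473. Replicate 1 had -0.36. The unadjusted p was 0.0975 without replicate 2 and 0.0654 without replicate 3.

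The other ligands varied more than their means. Jag1, which acts on both progenitors and vessels, had 0.17, 0.64 and -0.03 on replicates 2, 3 and 4 and -1.31 on replicate 1. Jag2 had -0.45, -0.80 and 0.28, with -0.96 on replicate 1, and Dll1, a ligand made by newborn neurons, had -0.29, 0.43 and 0.55, with 0.49 on replicate 1. None of these 3 kept a single sign on replicates 2 to 4, and their unadjusted p in limma lay between 0.206 and 0.306.

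Of the receptors, Notch4, found mainly in endothelium, had -0.05, 0.95 and 0.41 on replicates 2, 3 and 4. Its mean of 0.44 ± 0.50 (SD, n = 3) had an unadjusted p of 0.0948 in limma. Notch1, the main receptor of cortical progenitors, had -0.47, -0.36 and 0.18, with a mean of -0.22 ± 0.35 and -0.77 on replicate 1. Notch3, of mural cells and progenitors, averaged 0.04 ± 0.27. No receptor held a single sign on the 3 arrays. Since Dll4 and Notch4 are endothelial genes, vessel markers were set beside them. Of 12 measured vessel markers 9 had a negative mean (background 52.6%), 5 of them at an unadjusted p under 0.05 in limma (background 4.06% negative). Their median was -0.31, -0.44 and -0.26 on replicates 2, 3 and 4 and -0.14 on replicate 1. The other 3 markers had positive means, 0.20 for Kdr, 0.17 for Pecam1 and 0.06 for Flt1. The part of vessels in the Dll4 value was not tested.

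The fringes add a sugar to Notch that alters its response to Delta-like and Jagged ligands. Lfng, the fringe most used in the developing nervous system, had -1.0, -0.35 and -0.16 on replicates 2, 3 and 4. The values kept their sign but differed widely in size, and replicate 2 was farthest from 0. The mean was -0.50 ± 0.44 (SD, n = 3), or 1.42-fold in size, with an unadjusted p of 0.0493 and an adjusted p of 0.514 in limma. Replicate 1 had -0.83. Without replicate 2 the mean was -0.26 and the unadjusted p in limma was 0.321, so the value leaned on that array. Without replicate 3 the p was 0.0624. Rfng averaged -0.15 ± 0.30 and Mfng averaged 0.14 ± 0.47, and both crossed 0. Numb, which sends Notch to endosomes, averaged 0.09 ± 0.13, and its relative Numbl averaged 0.0027 ± 0.42.

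The RefSeq promoter table (build GRCm38.p6), which runs from 250 bases before to 50 bases after each start, held 32 of the 46 members. Dll4, Lfng and Tcf7l2 are shown because they are the members at an unadjusted p under 0.05 that it holds. It was searched on both strands for TGGGAA, the core bound by Rbpj, for CTTTGA, a core bound by TCF/LEF factors, and for GACCACCCA, the site bound by Gli factors. These motifs do not overlap in the windows shown, and capitals mark matches. The Rbpj core had 2 matches in the Lfng promoter, at chr5:140607091-140607390 on the plus strand. The Dll4 promoter, at chr2:119325534-119325833 on the plus strand, and the upstream one of 2 Tcf7l2 promoters, at chr19:55741560-55741859 on the plus strand, held none of the 3 motifs.
Lfng: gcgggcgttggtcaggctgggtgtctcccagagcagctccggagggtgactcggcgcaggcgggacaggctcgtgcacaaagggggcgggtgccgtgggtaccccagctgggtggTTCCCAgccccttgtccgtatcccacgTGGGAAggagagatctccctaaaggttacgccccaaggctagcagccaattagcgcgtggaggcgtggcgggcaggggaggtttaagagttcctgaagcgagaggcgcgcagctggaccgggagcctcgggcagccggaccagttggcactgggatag
Dll4: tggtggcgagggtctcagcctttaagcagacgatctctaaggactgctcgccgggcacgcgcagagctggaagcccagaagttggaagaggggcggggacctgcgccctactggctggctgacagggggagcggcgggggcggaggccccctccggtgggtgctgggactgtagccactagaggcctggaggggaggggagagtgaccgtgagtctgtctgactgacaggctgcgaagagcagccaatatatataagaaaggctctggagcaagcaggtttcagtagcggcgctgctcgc
Tcf7l2: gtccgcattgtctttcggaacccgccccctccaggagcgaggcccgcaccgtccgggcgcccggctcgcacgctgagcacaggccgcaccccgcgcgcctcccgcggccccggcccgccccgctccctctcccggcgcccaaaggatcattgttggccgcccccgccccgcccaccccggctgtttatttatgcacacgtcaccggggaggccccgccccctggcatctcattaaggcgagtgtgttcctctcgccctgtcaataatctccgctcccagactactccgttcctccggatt
The 3 windows were 66.7%, 63.7% and 70% G or C for Lfng, Dll4 and Tcf7l2, against a median of 52.7% over all 32851 promoters in the table. Over the 41 promoters of members, 14.6% held the Rbpj core, 12.2% the TCF/LEF core and 0% the Gli site, against 25.6%, 16% and 0.253% of all promoters. These matches describe the letters of the windows only.

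Of 49 further Notch pathway genes in a list, 27 were measured, 17 of them negative (background 52.6%), with a median of -0.06. At an unadjusted p under 0.05 limma listed 4 (14.8%, against 9.67% of all probes). Psen2, a catalytic subunit of the γ-secretase that releases Notch, had 0.66, 0.73 and 0.36 on replicates 2, 3 and 4, all clear of 0. Hes2, a Hes family repressor, had 0.77, 1.18 and 0.09, and Poglut1, which adds glucose to Notch, had 0.29, 1.04 and 0.30. Neurl1a, a ubiquitin ligase that acts on Notch ligands, had -0.30, -1.0 and -0.22. Of the other measured Hes and Hey genes, which include Notch targets, Hes1 had -0.12, 0.30 and -0.35 on replicates 2, 3 and 4, and Hes5 had -0.02, 0.03 and -0.29. Hey2 had 0.30, 1.36 and 0.17, with an unadjusted p of 0.0612 in limma, and Heyl had -0.68, -1.40 and 0.16, with an unadjusted p of 0.0777. Hes6 averaged 0.01 ± 0.09 (SD, n = 3) and Hey1 averaged 0.31 ± 0.30. Of these 6 genes, none reached an unadjusted p under 0.05, and they had no common sign.

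Hedgehog pathway members gave 0 of 5 tested probes at an unadjusted p under 0.05 in limma, against 9.67% of all probes, and their median log ratio was -0.03. Without replicate 4 the count was 1, Gli2, where 10.9% of all probes had such a p. Gli2, the main activator among Gli factors, had 1.53, 2.03 and -0.94 on replicates 2, 3 and 4, with -0.18 on replicate 1. Replicates 2 and 3 stood far above 0 and replicate 4 far below it, so the mean of 0.87 ± 1.59 (SD, n = 3) had an unadjusted p of 0.171 in limma. Without replicate 4 the mean was 1.78 and the unadjusted p was 0.000396.

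Gli1, whose transcription serves as a readout of Hedgehog activity, was negative on every array, at -0.24, -0.48 and -0.11 on replicates 2, 3 and 4 and -0.26 on replicate 1. Its mean of -0.27 ± 0.19 (SD, n = 3) had an unadjusted p of 0.121 in limma. Gli3, the main repressor in the dorsal forebrain, had -0.16, -0.49 and -0.05, with 0.03 on replicate 1. Both were smaller than 0.5 in size on each array and did not pass. Ptch1, the receptor and another readout of the pathway, had -0.34, -0.22 and 0.47, and averaged -0.03 ± 0.44. Smo, the transducer, had 0.28, -0.20 and 0.04, and averaged 0.04 ± 0.24.

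Of 42 further Hedgehog pathway genes in a list, 22 genes were measured by 23 probes. Of these probes, 13 were negative (background 52.6%), with a median of -0.11. At an unadjusted p under 0.05 limma gave 3 (13.0%, against 9.67% of all probes). Foxa2, a target in the ventral midline, had -0.69, -0.70 and -0.20 on replicates 2, 3 and 4, and Gas1, a co-receptor for Hedgehog ligands, had -0.36, -0.78 and -0.24. Ift88, a transport protein of the primary cilium in which the pathway runs, had 0.42, 0.16 and 0.61. Ventral telencephalic markers, which mark the region where Shh acts in the forebrain, were negative in 8 of 11 measured probes (background 52.6%). The other 3 were positive. The median was -0.24, -0.11 and -0.10 on replicates 2, 3 and 4. At an unadjusted p under 0.05 limma gave 1 on each side. Gad2 was positive, at 0.92, 0.74 and 0.49 on these arrays, and Ebf1 was negative, at -0.46, -0.15 and -0.78. The part of these markers in the values above was not tested.

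The members leaned to one side on replicates 1 and 3. As deposited, 36 of 46 member probes (78.3%) were negative on replicate 1, against 49.8% of all probes, and the member median was -0.28. On replicate 3, 30 of 45 (66.7%) were negative, against 50.3%, with a median of -0.26. Replicate 2 had 23 of 47 negative (48.9%, against 54.1%) and replicate 4 had 21 of 47 (44.7%, against 49.3%), with medians of 0.01 and 0.11. If replicate 1 has to be turned, its 36 negative members become positive.

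**Figure D3:**
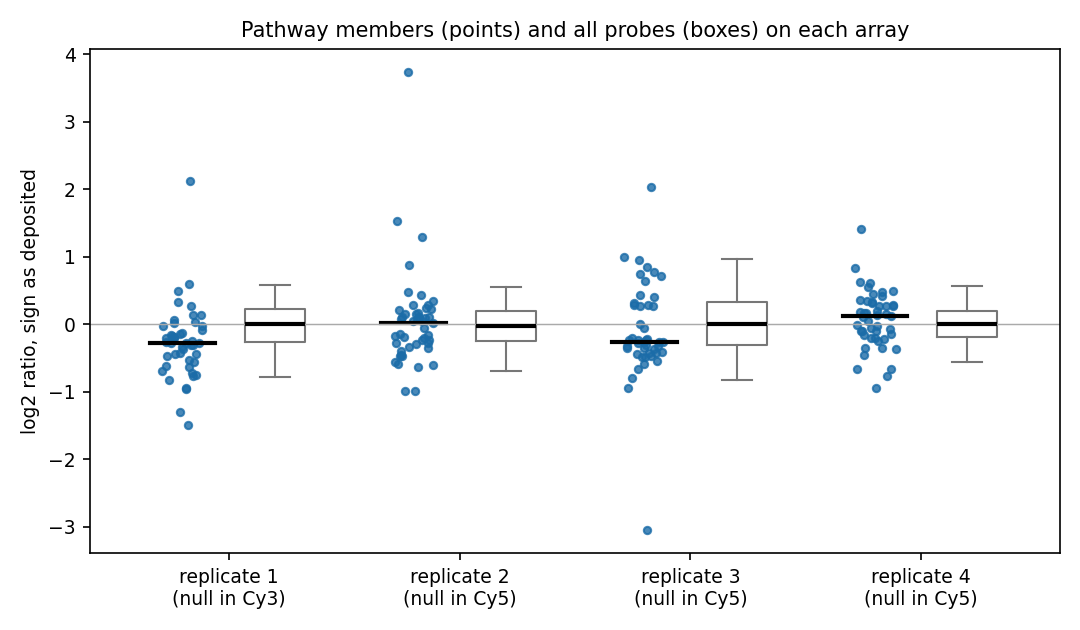
Log2 ratios of pathway members on each array (points, with their median as a black bar) beside all probes (box from the 25th to the 75th percentile, whiskers from the 5th to the 95th, median in black), with signs as deposited. The member median lies at -0.28 on replicate 1 and -0.26 on replicate 3, and at 0.01 and 0.11 on replicates 2 and 4, while the medians of all probes lie within 0.04 of 0.

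The 4 arrays together were fitted with both signs of replicate 1. With replicate 1 as deposited, limma listed 5 of 44 member probes at an unadjusted p under 0.05 (background 7.12%), all negative. They were Lrp6 at -0.75 ± 0.21 (SD, n = 4), Lfng at -0.58 ± 0.39, Lrp5 at -0.48 ± 0.33, Dvl3 at -0.36 ± 0.22 and Fzd6 at -1.18 ± 1.42. With replicate 1 turned, it listed 6 (background 8.44%), namely Tcf7l2 at -0.47 ± 0.14, Dkk3 at 0.40 ± 0.09, Dll4 at 0.60 ± 0.40, Fzd2 at -0.40 ± 0.27, Sfrp1 at 0.32 ± 0.17 and Wnt11 at 0.49 ± 0.48. One fit favours probes where replicate 1 has the sign of the other arrays and the other fit those where it opposes them, so the lists differ by construction. The smallest adjusted p of a member in limma was 0.617 with replicate 1 as deposited, where 0.0352% of all probes passed 0.05, and 0.475 with it turned, where 0% did. A single sign on all 4 arrays was held by 7 members as deposited, all negative (background 7.74% for negative and 15.5% for either sign), and by 10 with replicate 1 turned (background 18.1%), 4 negative (background 9.58%) and 6 positive. Across all 44, the sign of replicate 1 matched that of the other arrays' mean in 19 members and opposed it in 25.

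**Figure D4:**
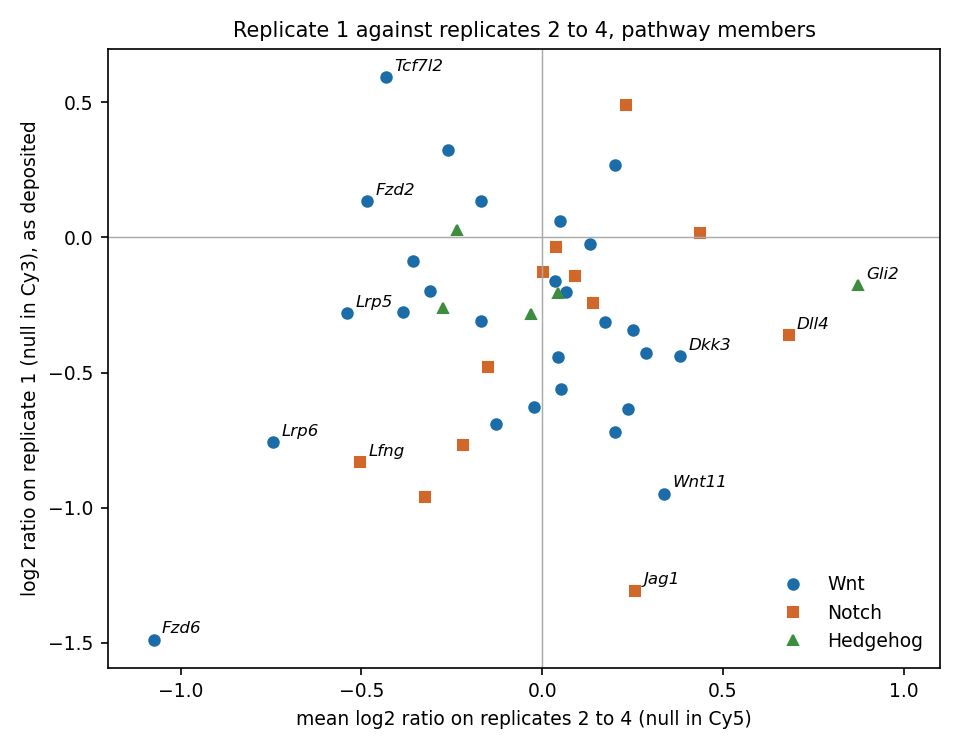
Log2 ratio on replicate 1 as deposited (vertical axis) against the mean of replicates 2 to 4 (horizontal axis) for the 44 member probes measured on all 4 arrays, by pathway. Lrp6, Lrp5 and Lfng fall at the lower left, and Dll4, Dkk3, Fzd2 and Tcf7l2 where both axes differ in sign.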

How the data were processed

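Deposited values were log2 ratios of both channels, 1 column per array with 0 unused columns. The log base was inferred from their range. For the numerator, background correction and normalization by the authors, the entry is "not given in the sources used here". The mutated gene and its own probe are not reported here. Depth does not apply to arrays, and their number limits the precision. No scanner intensities entered, so how far signals stood above background is unknown.

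Probes were named from the platform annotation, in which 6269 of 6856 probes had 1 symbol, 6 had several and 581 had none. Of the named probes 6250 matched the RefSeq gene table of GRCm38.p6, which changed 0 symbols.

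Mean log ratios on replicates 2 to 4 were compared with 0, two-sided, by limma 3.58.1 (R 4.3.3; functions lmFit, then eBayes), over 5720 probes with a value on all 3, with Benjamini-Hochberg adjustment. The shared pool counts as 1 control sample, so its own spread is left out. P-values weigh the mean log ratio against the spread between these arrays, with a variance prior from all probes tested. That spread mixes differences between null samples and between hybridizations. No set test was run. Members, roles and lists were chosen with earlier results of these data known. The rule for naming took members at an unadjusted p under 0.05, the next 4 per pathway by p, members with a single sign and a mean beyond 0.4, and genes with several probes. Other members, Ccnd1, Hes1, Hes5, Hes6, Hey1, Hey2, Heyl, Gad2, Ebf1, Ebf3 and 3 vessel markers were named after their values were seen. The fit was checked on simulated log ratios, drawn independently for each array with 1 spread per probe. At an adjusted p of 0.05 in limma on 3 arrays, it found 53% of 2-fold and 96.8% of 4-fold changes. Of its calls, 5.07% were false. The real arrays differed in spread and shared a control pool, so these shares need not hold for them. Alternatives were both signs of replicate 1, centring, scaling, variance priors, array weights, averaging by gene and leaving out each array.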

Additional observations from a re-analysis of the deposited data

Results flagged for a closer look

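In 4 arrays, a single value far from the other 3 was looked for in each of 44 member probes, with replicate 1 both as deposited and turned. Chance alone picks out about 1 in 20 where the 4 values share the same normal spread. The arrays differed in spread, and the share picked out among all probes is not given here. With replicate 1 as deposited, the Hedgehog receptor Ptch1 stood out on replicate 4, at 0.47 against a median of -0.28 on the other arrays, and Numbl on replicate 4, at 0.48 against -0.24. Dll1 stood out on replicate 2, at -0.29 against 0.49. With replicate 1 turned, Dkk3 stood out on replicate 3, at 0.27 against 0.44.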

How the results depend on the processing

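No paired analysis was possible because a single control pool was used on every array. The count of all probes past the adjusted threshold in limma was 0, with 553 at an unadjusted p under 0.05. It was 2 with replicate 1 as deposited, 1 with a robust variance prior, 3 with array weights and 1 at an adjusted p of 0.1. It was 0 in each of the fits that left out 1 replicate. Wnt members at an unadjusted p under 0.05 numbered 5, with 10 under array weights (background 18.7%) and 3 without a variance prior (background 7.15%), and 2 to 5 when a replicate was left out. Notch members numbered 2, with 1 in both fits of 4 arrays (background 7.12% as deposited and 8.44% turned), 0 without a variance prior (7.15%), 1 where probes with 2 values were admitted (9.39%), and 0 to 3 when a replicate was left out. Hedgehog members numbered 0, and 0 to 1 when a replicate was left out. Their median log ratio of -0.03 was -0.15 with array weights, and ran from -0.28 to 0.067 when a replicate was left out. The Wnt and Notch medians moved by less than the spread between arrays but changed sign. The Wnt median of 0.04 was -0.09 with replicate 1 as deposited, -0.04 without replicate 2 and -0.09 without replicate 4. The Notch median of 0.06 was -0.0053 with replicate 1 as deposited, -0.04 with array weights and -0.10 without replicate 4. The Hedgehog median was 0.05 with replicate 1 turned and 0.03 on a common scale. Of the 45 member probes, 21 changed sign in at least 1 setting. The share over all probes is not given here, so these counts show no trait particular to the members. By setting, 8 member probes changed sign with replicate 1 as deposited, 5 with it turned, 4 with array weights and 2 on a common scale. Without replicates 2, 3 and 4 in turn, 5, 4 and 10 did so. The 7 at an unadjusted p under 0.05 in limma did not, but each had a single sign on replicates 2 to 4. Leaving out or weighting those arrays could therefore not turn their means. Of the members named by the rule, Jag1 (-0.13) and Smo (-0.020) changed sign with replicate 1 as deposited, and Notch1 (0.028) with it turned. Over the fits that left out 1 replicate, Smo ran from -0.079 to 0.16 and the Apc probe 1471 from -0.072 to 0.49. The cause was not tested. Centring the arrays, with or without a common scale, moved none of the 21 named members across the unadjusted threshold. Averaging probes by gene did not either, but only Apc had more than 1 probe, so the other means could not change.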
